A study of Mus musculus with 6 samples.

Results

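The transcripts described here are those of 8 genes that together mark a phagocyte of scars and lipid-rich lesions, named after the receptor TREM2. They are Trem2, Tyrobp, Gpnmb, Lgals3, Cd68, Apoe, Cd9 and Fabp5. The genes were chosen by name, and each symbol matched 1 of the 54532 rows of the deposited count table. All 8 passed the filter on low counts and were among the 14406 genes tested.

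Bulk RNA of heart tissue was sequenced at day 14 after myocardial infarction, in 3 libraries from knockouts of ACKR4, a receptor that scavenges chemokines without G protein signalling (ACKR4_KO), and 3 from wild-type mice (WT). Both groups were C57BL/6 mice 8 to 10 weeks old, all were infarcted, and no uninjured heart was analysed here. The comparison asks whether loss of ACKR4 goes with a different level of these genes in the healing heart. The labels do not say how the knockout allele was made, which region of the heart was taken, or whether animals were pooled. Total counts lay between 10971206 and 12238996 reads in ACKR4_KO and between 9422462 and 13910358 in WT.

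TREM2 is a surface receptor of macrophages that binds lipids and lipoproteins and signals through the adaptor TYROBP, also called DAP12, which recruits the kinase SYK. Macrophages that engulf dying cells and lipid debris switch on TREM2 together with genes for lysosomal and lipid-handling proteins. In the infarcted heart such cells gather in the healing scar after the first wave of inflammatory monocytes. Several of the 8 genes are also transcribed outside macrophages, Cd9 and Fabp5 in endothelium and other stroma and Apoe in smooth muscle and fibroblasts. In bulk heart RNA, fewer cells of a type and less RNA per cell cannot be told apart.

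Promoter windows from RefSeq (GRCm38.p6, 250 bases before to 50 after the transcription start, written 5′ to 3′ on the gene's strand) were found for 6 of the 8 genes, Trem2, Gpnmb, Lgals3, Cd68, Apoe and Cd9. The windows of 4 are shown, Trem2 as the receptor the group is named for, Gpnmb and Cd68 for the matches they hold, and Cd9 as the member whose groups did not overlap. Capitals mark 4 sets of letters searched on both strands, the AP-1 site TGAGTCA, the ETS core GGAAGT (the family of PU.1, the master factor of macrophages), the E-box CACGTG and the M-box TCATGTG, both bound by the MITF and TFE family of lysosomal gene regulators. None of these sets of letters contains another.
Trem2, chr17:48346151-48346450, plus strand: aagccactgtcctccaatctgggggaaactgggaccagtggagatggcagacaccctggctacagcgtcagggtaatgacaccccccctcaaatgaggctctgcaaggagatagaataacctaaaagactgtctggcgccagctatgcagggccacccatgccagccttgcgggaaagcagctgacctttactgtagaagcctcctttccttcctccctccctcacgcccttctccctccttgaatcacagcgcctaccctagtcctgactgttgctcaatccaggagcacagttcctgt
Gpnmb, chr6:49036268-49036567, plus strand: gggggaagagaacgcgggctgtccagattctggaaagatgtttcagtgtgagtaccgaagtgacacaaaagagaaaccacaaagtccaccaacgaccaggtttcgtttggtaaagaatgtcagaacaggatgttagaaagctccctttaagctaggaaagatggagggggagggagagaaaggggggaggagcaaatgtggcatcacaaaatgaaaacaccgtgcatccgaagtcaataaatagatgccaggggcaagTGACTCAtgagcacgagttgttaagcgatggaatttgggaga
Cd68, chr11:69666121-69666420, minus strand: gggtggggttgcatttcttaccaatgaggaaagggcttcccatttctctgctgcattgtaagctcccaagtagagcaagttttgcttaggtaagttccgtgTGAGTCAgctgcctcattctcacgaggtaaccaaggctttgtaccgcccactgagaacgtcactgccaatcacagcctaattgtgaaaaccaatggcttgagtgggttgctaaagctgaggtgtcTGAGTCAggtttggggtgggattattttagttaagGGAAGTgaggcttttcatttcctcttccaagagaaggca
Cd9, chr6:125494711-125495010, minus strand: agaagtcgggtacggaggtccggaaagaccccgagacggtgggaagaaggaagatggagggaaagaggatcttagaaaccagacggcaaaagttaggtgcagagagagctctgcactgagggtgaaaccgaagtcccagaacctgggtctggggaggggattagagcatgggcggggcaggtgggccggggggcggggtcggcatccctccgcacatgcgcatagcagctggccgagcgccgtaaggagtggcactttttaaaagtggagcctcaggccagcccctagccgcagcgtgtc
Cd68 held the AP-1 letters at 149 and 24 bases before its start and the ETS core from base 12 after it, and Gpnmb held the AP-1 letters on the opposite strand from base 9 after its start. Of all 32851 RefSeq promoter windows of this length, 5.2% held the AP-1 letters, 23.8% the ETS core, 7.15% the E-box and 3.77% the M-box. The windows of Trem2, Cd9, Lgals3 and Apoe held none of these letters, which says nothing of the factors themselves.

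No member of the group passed the test between genotypes. By edgeR's quasi-likelihood test, with Benjamini-Hochberg adjustment over all 14406 genes, the adjusted p of the 8 genes lay between 0.606 and 0.967, and 0 of 8 passed. The background was the same, since 0 of all genes tested (percent called 0) passed an adjusted p of 0.05. At an unadjusted p under 0.05 there was 1 of the 8, Cd9, beside 1073 of all genes (7.45%, of which 3.64% of genes lower and 3.81% higher in ACKR4_KO). DESeq2 called 0 of the 8 and 41 of the 17550 genes to which it gave an adjusted p (0.234%). The fitted log2 fold change was below 0 for 7 of the 8 genes, beside 48.0% of all genes. The median of the 8 was -0.19, beside 0.01 over all genes tested. Without ACKR4_KO replicate 2 the median was 0.10 and 2 of the 8 genes, Cd9 and Fabp5, stayed below 0, beside 47.8% of all genes in that fit.

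The knockout allele was checked on the targeted gene. Ackr4 had 4, 1 and 12 reads in the ACKR4_KO libraries, against 165, 151 and 169 in the WT libraries, and the fitted log2 fold change was -4.70 ± 0.48 (SE; edgeR adjusted p = 0.099, DESeq2 adjusted p = 1.41e-18). ACKR4_KO replicate 2 stood apart in its fibroblast genes. Summed levels of 10 fibroblast genes there were 4344 CPM (reads scaled to library size with TMM factors), against 10349 and 14084 CPM in ACKR4_KO replicates 1 and 3 and 11211 to 12662 CPM in WT. Summed cardiomyocyte genes were at 61351 CPM in that library, against 44594 and 52167 CPM in the other ACKR4_KO libraries and 34832 to 43513 CPM in WT, although the cardiomyocyte score, which weights genes equally, was 0.23 in replicate 2 and 0.27 in replicate 3.

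**Figure D1:**
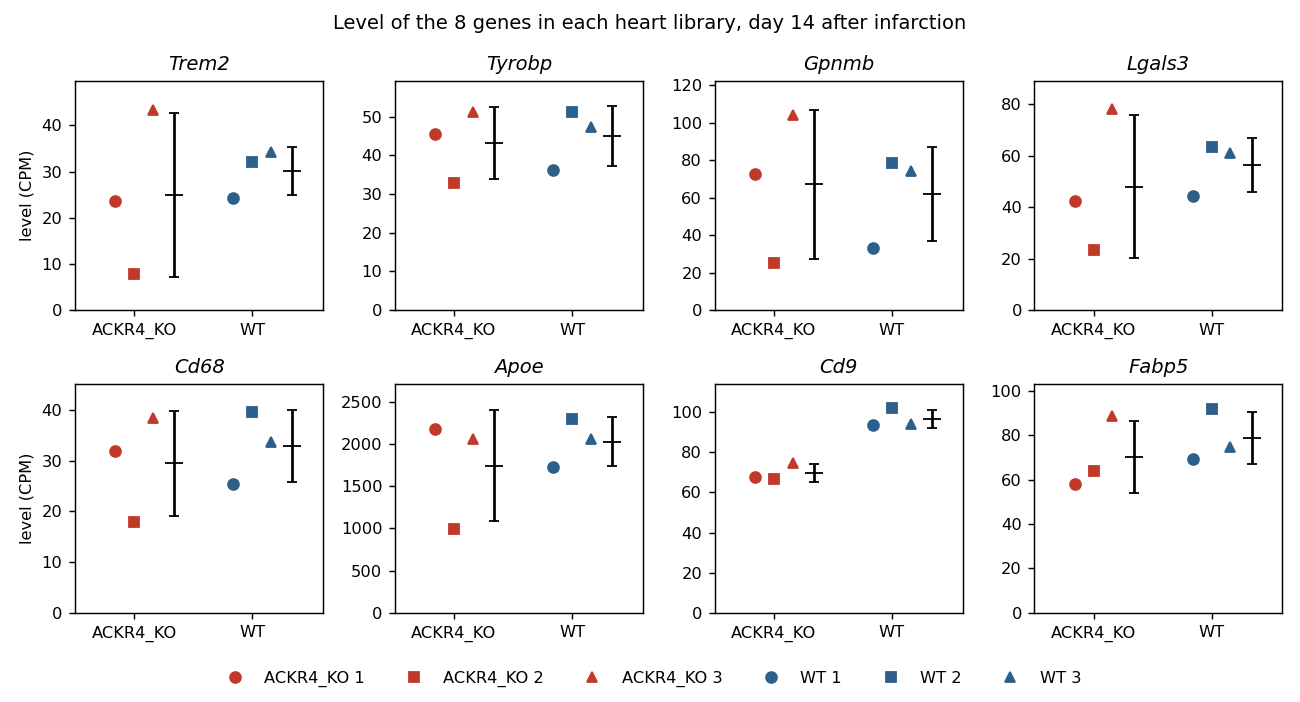
Level in CPM of each of the 8 genes in the 3 ACKR4_KO libraries (red) and the 3 WT libraries (blue), with symbols for replicates 1 to 3 and the mean ± SD beside each group. Cd9 separates the genotypes, at 66.6 to 74.9 CPM in ACKR4_KO and 93.6 to 102 CPM in WT, whereas in the other 7 genes the ranges of ACKR4_KO and WT overlap.

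The receptor itself came first. Trem2 (ENSMUSG00000023992, chromosome 17, 48346401 to 48354147 on the plus strand of GRCm38) was at 23.6, 7.89 and 43.3 CPM in ACKR4_KO replicates 1, 2 and 3, against 24.2, 32.0 and 34.2 CPM in WT replicates 1, 2 and 3. The knockout libraries held both the lowest and the highest Trem2 level of the study, so the groups overlapped. Behind the lowest value were 77 reads, with a 95% exact Poisson interval of 6.23 to 9.86 CPM, and behind the highest 496 reads, with 39.6 to 47.3 CPM. These intervals cover counting error alone. The log2 fold change was -0.27 ± 0.54 (SE, edgeR adjusted p = 0.916), and its 95% interval, from the normal approximation, reached from -1.32 to 0.79. It was -0.91 without ACKR4_KO replicate 3 and 0.15 without ACKR4_KO replicate 2, so the direction rested on 1 library.

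Tyrobp, the adaptor that carries the signal of TREM2 and of several other receptors of myeloid and NK cells, varied far less. It lies on chromosome 7 (30413760 to 30417585, plus strand, GRCm38) as row ENSMUSG00000030579. Its level was 45.6, 32.9 and 51.1 CPM in ACKR4_KO, against 36.2, 51.3 and 47.4 CPM in WT. The groups overlapped almost entirely, with a log2 fold change of -0.06 ± 0.19 (SE, edgeR adjusted p = 0.952). The highest ACKR4_KO library exceeded the lowest by 1.55 times for Tyrobp and by 5.49 times for Trem2, so receptor and adaptor transcripts did not keep a fixed ratio between knockout libraries. In WT the same ratios were 1.42 for Tyrobp and 1.41 for Trem2.

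Gpnmb and Lgals3 varied in the manner of Trem2. Gpnmb encodes a transmembrane glycoprotein of lipid-laden macrophages that is induced with lysosomal stress (ENSMUSG00000029816, chromosome 6, 49036546 to 49070929, plus strand). It was at 72.8, 25 and 104 CPM in ACKR4_KO, against 33.4, 78.6 and 74.4 CPM in WT. Here WT replicate 1 was low as well, and the groups overlapped, with a log2 fold change of 0.12 ± 0.55 (SE, edgeR adjusted p = 0.967). The sign turned to -0.33 without ACKR4_KO replicate 3, to -0.18 without WT replicate 1 and to -0.0059 by limma-voom. Melanocytes also make Gpnmb, and of 6 melanocyte markers 2 were tested, with a summed level of 4.12 to 7.07 CPM in ACKR4_KO and 3.5 to 5.17 CPM in WT. Lgals3 encodes galectin-3, a secreted lectin that marks phagocytes of injured tissue and is also made by fibroblasts (ENSMUSG00000050335, chromosome 14, 47367751 to 47386160, plus strand). It was at 42.2, 23.5 and 78.0 CPM in ACKR4_KO, against 44.3, 63.5 and 61.1 CPM in WT. Again ACKR4_KO replicate 2 was the lowest and ACKR4_KO replicate 3 the highest of all 6 libraries. The log2 fold change was -0.23 ± 0.41 (SE, edgeR adjusted p = 0.907), and it was -0.76 without ACKR4_KO replicate 3 and 0.10 without ACKR4_KO replicate 2.

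Cd68 and Apoe, the lysosomal and the lipid carrier member, were low in ACKR4_KO replicate 2 and close to WT in the other knockout libraries. Cd68 encodes a lysosomal membrane glycoprotein used as a general macrophage stain (ENSMUSG00000018774, chromosome 11, 69664213 to 69666153, minus strand). It was at 32.0, 18 and 38.4 CPM in ACKR4_KO, against 25.4, 39.6 and 33.6 CPM in WT, a log2 fold change of -0.15 ± 0.28 (SE, edgeR adjusted p = 0.908). Apoe encodes the apolipoprotein that carries cholesterol out of cells and is itself a TREM2 ligand (ENSMUSG00000002985, chromosome 7, 19696109 to 19699188, minus strand). It was at 2174, 990 and 2060 CPM in ACKR4_KO, against 1720, 2298 and 2053 CPM in WT. In ACKR4_KO replicates 1 and 3 both genes lay within the WT range, while replicate 2 lay below every WT library. The log2 fold change of Apoe was -0.22 ± 0.30 (SE, edgeR adjusted p = 0.868), and 0.07 without ACKR4_KO replicate 2.

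Cd9 was the member whose groups did not overlap. It encodes a tetraspanin of the plasma membrane that organises receptors and integrins and is present on macrophages, endothelium, smooth muscle and platelets (ENSMUSG00000030342, chromosome 6, 125460266 to 125494791, minus strand). Its level was 67.9, 66.6 and 74.9 CPM in ACKR4_KO, against 93.6, 102 and 94.3 CPM in WT. All 3 knockout libraries lay below all 3 wild-type libraries, with a spread within each group that was small (SD 4.46 CPM in ACKR4_KO and 4.70 CPM in WT, n = 3 each). The log2 fold change was -0.47 ± 0.11 (SE), a level 0.723 times that of WT. The unadjusted p by edgeR was 0.00252, and adjusted over all genes it was 0.606, so Cd9 did not pass. DESeq2 gave it an adjusted p of 0.171. Left-out libraries moved the log2 fold change between -0.52 and -0.43. Smooth muscle and pericyte genes were the nearest marker list to Cd9 by course. Their scores were -0.11, -0.30 and -0.04 in ACKR4_KO, against 0.10, 0.18 and 0.18 in WT, also without overlap. Endothelial genes scored -0.20, 0.14 and -0.32 in ACKR4_KO, against 0.06, 0.12 and 0.19 in WT, with overlap. Of endothelial genes 8 of 8 had a log2 fold change below 0, beside 48.0% of all genes. So had 6 of 8 smooth muscle and pericyte, 20 of 22 macrophage, 9 of 10 fibroblast and 1 of 12 cardiomyocyte genes. The part of these cell types in the Cd9 difference was not tested. Non-overlap was not rare in these libraries, since 1 of the 8 genes showed it beside 2040 of all genes (14.2%), 7.63% with ACKR4_KO lower and 6.53% with ACKR4_KO higher.

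WT libraries also carried more lung transcripts than ACKR4_KO libraries, and of 11 lung epithelium genes tested 10 were lower in ACKR4_KO with groups that did not overlap, beside 7.63% of all genes. Sftpc, the surfactant protein of alveolar epithelium, had no read in any ACKR4_KO library and was at 151, 24.4 and 74.9 CPM in WT replicates 1, 2 and 3. Within WT, Cd9 was at 93.6, 102 and 94.3 CPM in replicates 1, 2 and 3. The 95% exact Poisson intervals, 88.4 to 99, 95.8 to 109 and 89.4 to 99.4 CPM, overlapped, so the order of the 3 libraries could not be told. Alveolar macrophages of the lung also transcribe Trem2, Cd9, Fabp5 and Lgals3. Of 11 alveolar macrophage markers 5 passed the filter on low counts, and the summed list was at 56.0 to 59.6 CPM in ACKR4_KO and 58.3 to 73.5 CPM in WT. Most of that sum was Car4 and Slc7a2, so it says little of the rarer markers. The log2 fold changes of the 5 tested were 1.63 for Marco, 0.08 for Slc7a2, -0.24 for Car4, -0.37 for Atp6v0d2 and -1.31 for Cidec, which fat also makes and which reached 18.5 CPM in WT replicate 1. Marco rested on ACKR4_KO replicate 1, with 4.44 CPM against 0.41 and 1.05 CPM in replicates 2 and 3, and had 0.20 without it. The markers that did not pass the filter were near 0 CPM. Ear2 was at 0.485 to 0.615 CPM in ACKR4_KO and 0.622 to 1.13 CPM in WT, without overlap, Siglecf, Krt79 and Plet1 stayed at or below 0.565 CPM in ACKR4_KO and 0.934 CPM in WT, Ear1 had reads in WT replicate 2 alone and Fabp1 in ACKR4_KO replicate 3 alone. Chil3, listed here with monocytes and also made by alveolar macrophages, was at 2.91, 2.05 and 0.96 CPM in ACKR4_KO, against 52.4, 4.94 and 13.8 CPM in WT, in the same order within WT as Sftpc. Fast skeletal muscle genes had scores (mean deviations of log2 CPM) of -1.76, -0.20 and -1.38 in ACKR4_KO, against -1.36, 2.26 and 2.45 in WT. The genes named from these lists were chosen after their values were seen, and the part of lung or skeletal muscle in the Cd9 difference was not tested.

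Fabp5, a carrier of fatty acids in macrophages, endothelium and fat (ENSMUSG00000027533, chromosome 3, 10012548 to 10016607, plus strand), was at 58.0, 63.8 and 88.8 CPM in ACKR4_KO, against 69.2, 91.9 and 74.8 CPM in WT. The lowest library here was ACKR4_KO replicate 1, and the groups overlapped, with a log2 fold change of -0.16 ± 0.18 (SE, edgeR adjusted p = 0.836). Fabp5 has processed pseudogenes that could take part of its reads. Rows at least 90% identical to its transcript over 100 bases numbered 5 and held 39 reads in all, 0.746% of the 5227 reads of Fabp5. Of these reads 37 lay in Gm6166, with 2, 2 and 3 in ACKR4_KO and 12, 4 and 14 in WT. For Cd9 such rows held 2 reads, and the other 6 genes had no such row. Reads that match a gene and its copy equally may be in neither row, so these counts cannot show how many were lost. On the strand opposite Cd9 lie Gm26728 and Gm28809, with 2 and 18 reads in all 6 libraries. Adipocyte genes, which come with Fabp5 in fat, ranged as a sum from 4.28 to 102 CPM in ACKR4_KO and from 11.2 to 305 CPM in WT. The part of fat in the level of Fabp5 was not tested.

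**Figure D2:**
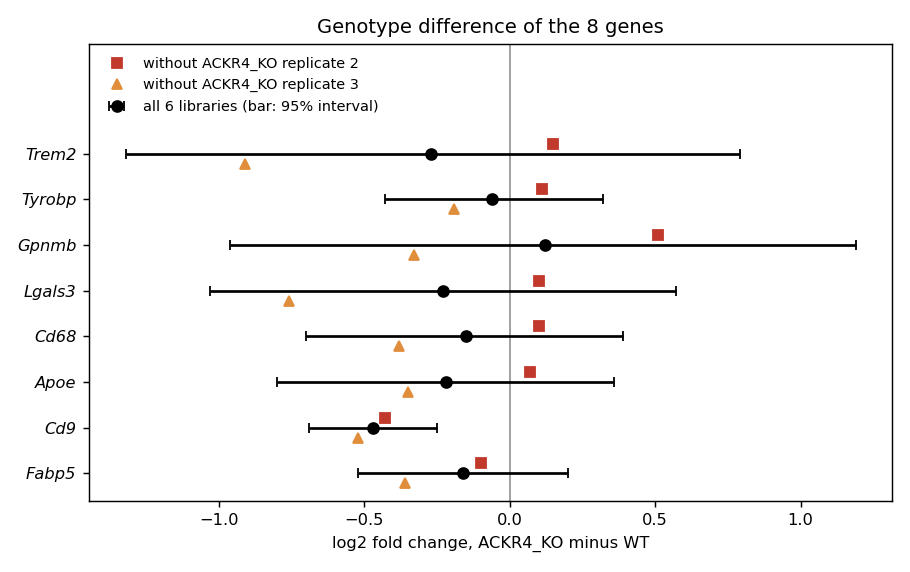
Fitted log2 fold change, ACKR4_KO minus WT, of the 8 genes with all 6 libraries (black, bars of the 95% interval), without ACKR4_KO replicate 2 (red squares) and without ACKR4_KO replicate 3 (orange triangles). Cd9 stays between -0.52 and -0.43 in these fits, and Trem2 lies at -0.91 without ACKR4_KO replicate 3 and at 0.15 without ACKR4_KO replicate 2.

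Per length of transcript, the group was led by Apoe. With CPM divided by the length in kilobases of the principal transcript in GENCODE M21, Apoe was at 1237 ± 464 CPM per kilobase in ACKR4_KO and 1437 ± 206 in WT (SD, n = 3 each). Tyrobp followed with 76.6 ± 16.6 in ACKR4_KO and 79.7 ± 13.9 in WT, Fabp5 with 71.1 ± 16.6 in ACKR4_KO and 79.7 ± 12.0 in WT, and Cd9 with 56.8 ± 3.64 in ACKR4_KO and 78.7 ± 3.80 in WT. These 3 did not differ from each other beyond their spread in WT. Lgals3 was at 33.8 ± 19.5 in ACKR4_KO and 39.7 ± 7.37 in WT. Cd68 and Trem2 were at 24.0 ± 8.48 and 22.9 ± 16.3 in ACKR4_KO, and at 26.7 ± 5.80 and 27.7 ± 4.83 in WT, so their order could not be told. Gpnmb, with the longest transcript, was the lowest at 18.2 ± 10.8 in ACKR4_KO and 16.8 ± 6.75 in WT. With the union of all exons as the length, Fabp5 moved to place 6 and Trem2 to place 8.

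Knockout libraries spread more widely than wild-type libraries in these genes. The SD of log2 CPM within ACKR4_KO exceeded that within WT for 8 of 8 genes, beside 74.7% of all genes tested. It was 1.23 in ACKR4_KO and 0.26 in WT for Trem2, 1.07 in ACKR4_KO and 0.69 in WT for Gpnmb, and 0.86 in ACKR4_KO and 0.28 in WT for Lgals3. At the other end, Cd9 had 0.09 in ACKR4_KO and 0.07 in WT. The median over all genes was 0.26 in ACKR4_KO and 0.15 in WT. ACKR4_KO replicate 2 was the lowest of the 6 libraries for 7 of the 8 genes, where it was the lowest for 25.6% of all genes. ACKR4_KO replicate 3 was the highest for 3 of the 8, Trem2, Gpnmb and Lgals3, beside 23.8% of all genes.

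Fibroblast and macrophage genes were low in the same library. The score of a list is the mean deviation of its members' log2 CPM from their own means over the 6 libraries. For the 8 genes it was -0.02, -0.80 and 0.41 in ACKR4_KO replicates 1, 2 and 3, against -0.18, 0.35 and 0.23 in WT. For 22 general macrophage genes it was 0.02, -0.59 and 0.10 in ACKR4_KO, against -0.0045, 0.22 and 0.25 in WT. For the fibroblast genes it was 0.06, -1.04 and 0.18 in ACKR4_KO, against 0.19, 0.31 and 0.30 in WT. ACKR4_KO replicate 2 was the lowest in all 3 lists, and ACKR4_KO replicate 3 was above every WT library for the 8 genes while in the fibroblast list its score was just below the lowest WT score. The part of tissue sampling in these scores was not tested.

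**Figure D3:**
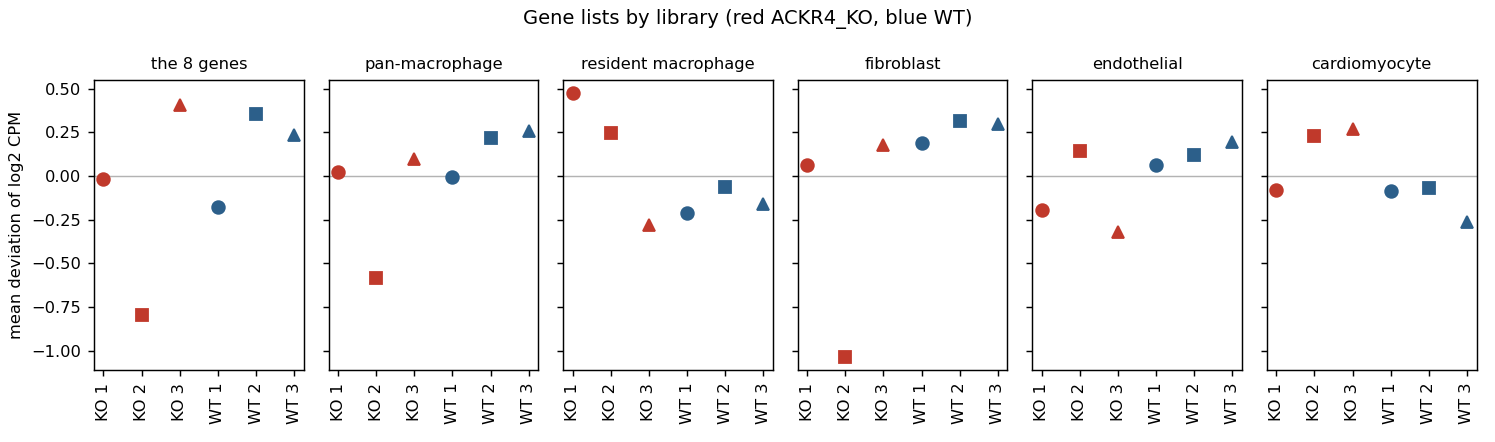
Score of 6 gene lists in each library, as mean deviation of log2 CPM, for ACKR4_KO (red) and WT (blue). ACKR4_KO replicate 2 lies at -0.80 for the 8 genes, -0.59 for macrophage genes and -1.04 for fibroblast genes, and not among the lowest for resident macrophage, endothelial or cardiomyocyte genes.

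The genes most like Trem2 across the libraries were found over the whole table. Likeness was measured as the root mean square difference of log2 CPM, each gene centred on its mean over the 6 libraries, among 12849 genes with a mean of at least 2 CPM. The nearest genes to Trem2 were Loxl3, a collagen cross-linking oxidase, at 0.11, Col5a2 at 0.12, and Wdr19, a protein of cilia, Col1a2 and Col16a1 at 0.13 each. Col1a2, a chain of the main fibrillar collagen of scar, was at 1524, 556 and 3093 CPM in ACKR4_KO, against 1727, 2097 and 1895 CPM in WT. It was lowest and highest in the same knockout libraries as Trem2. These values describe 6 libraries that share ACKR4_KO replicate 2 as their extreme. The member nearest to Trem2 was Lgals3, at 0.26, and Tyrobp, the signalling partner, was at 0.58, Fabp5 at 0.66 and Cd9 at 0.68.

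Set beside marker lists of 6 cell classes in the same measure, the 8 genes differed in their nearest list, often by a small margin. Trem2 was nearest the fibroblast list, at 0.37, and at 0.53 from the macrophage list, and Gpnmb, Lgals3 and Apoe were also nearest the fibroblast list, at 0.50, 0.27 and 0.16. Tyrobp and Cd68 were nearest the macrophage list, at 0.15 and 0.18. Cd9 and Fabp5 were nearest the smooth muscle and pericyte list, at 0.10 and 0.20. For Apoe the macrophage list was almost as near, at 0.17. The macrophage list also came second for Gpnmb at 0.53, Lgals3 at 0.33, Cd9 at 0.21 and Fabp5 at 0.25, and the fibroblast list for Cd68 at 0.23. The measure was chosen after the values were seen and describes shared courses over 6 libraries, not the cells of origin.

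**Figure D4:**
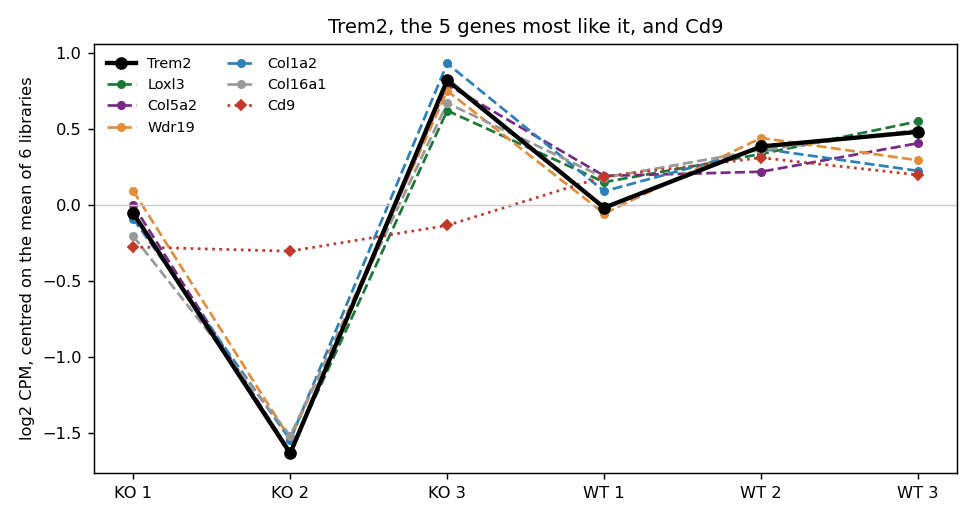
Log2 CPM of Trem2 (black), of the 5 genes most like it (dashed) and of Cd9 (red, dotted), each centred on its mean over the 6 libraries, with lines joining the values of a gene. Trem2 and its nearest genes share the low point in ACKR4_KO replicate 2 and the high point in ACKR4_KO replicate 3, and Cd9 is low in all 3 ACKR4_KO libraries.

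To set each gene against the macrophage RNA of its own library, the mean log2 CPM of the 22 general macrophage genes was subtracted. For Trem2 this log2 ratio was -1.09, -2.04 and -0.29 in ACKR4_KO, against -1.03, -0.85 and -0.79 in WT. Most of the spread of Trem2 among knockout libraries was therefore still present relative to macrophage genes, 1.75 between the extremes of the 6 libraries, beside 2.43 for its log2 CPM. For Cd68 the spread was 0.49 by this ratio and 1.13 in log2 CPM, and for Apoe 0.52 by the ratio and 1.21 in log2 CPM. Tyrobp was at -0.15, -0.0055 and -0.06 in ACKR4_KO, against -0.45, -0.17 and -0.32 in WT, and its groups did not overlap. The difference was 0.24 (exact two-sided permutation test, p = 0.1, the smallest that 3 against 3 allows, unadjusted and 1 of 8 such tests). Cd9 was at 0.43, 1.01 and 0.49 in ACKR4_KO, against 0.92, 0.82 and 0.67 in WT, with means of 0.64 ± 0.32 in ACKR4_KO and 0.80 ± 0.13 in WT (SD, n = 3 each). Relative to macrophage genes the groups of Cd9 overlapped, with ACKR4_KO replicate 2 the highest of the 6 libraries and ACKR4_KO replicates 1 and 3 below every WT library. The difference of Cd9 was -0.16 (exact two-sided permutation test, p = 0.5, unadjusted). The difference of the other 5 genes lay between -0.07 for Lgals3 and 0.30 for Gpnmb, and that of Trem2 was -0.25. With 3 libraries a group this test cannot reach 0.05. Against the 10 fibroblast genes, a comparison chosen after the values were seen, Trem2 spanned 1.22 over the 6 libraries. Its genotype difference there was -0.04.

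**Figure D5:**
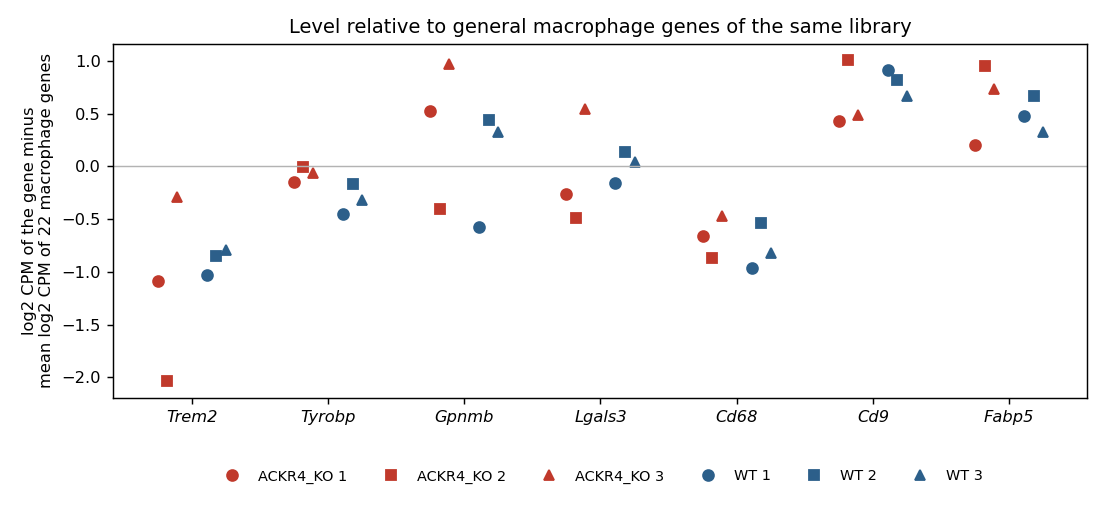
Log2 CPM of 7 of the genes minus the mean log2 CPM of 22 general macrophage genes in the same library, for ACKR4_KO (red, left of each pair) and WT (blue), with symbols for replicates 1 to 3. Apoe, at 4.90 to 5.42 in ACKR4_KO and 5.11 to 5.31 in WT, is left out for scale, and Trem2 in ACKR4_KO replicate 2 lies lowest at -2.04.

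Further genes of the TREM2 pathway were read from lists chosen by name. Of 25 other genes of the lipid-associated phagocyte programme 24 were tested, and 0 passed by edgeR's test, 5 with a log2 fold change above 0 and 19 below, with a median of -0.20 beside 0.01 over all genes. Its most abundant members are also made by heart muscle and vessels, and these were Lpl, a lipase of capillaries, with a log2 fold change of 0.16, the fatty acid transporter Cd36 with -0.14, the cathepsin Ctsb with -0.01 and the endothelial fatty acid carrier Fabp4 with -0.09. Spp1 and Itgax were named after their values were seen. Spp1, which encodes osteopontin, was at 40.5, 18.5 and 69.8 CPM in ACKR4_KO, against 55.2, 104 and 56.3 CPM in WT. Itgax, the integrin CD11c, was at 6.70, 4.30 and 7.07 CPM in ACKR4_KO, against 8.25, 8.02 and 10.7 CPM in WT, with groups that did not overlap and an edgeR adjusted p of 0.664. In this list 5 genes were lower in ACKR4_KO without overlap, beside 7.63% of all genes.

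In the list of genes of TREM2 signalling and its regulators, 20 of 20 were tested and 0 passed. Of these, 4 had a log2 fold change above 0 and 16 below, with a median of -0.24. Syk, the kinase bound by TYROBP, had 0.21, the phosphatase Inpp5d 0.13 and the phospholipase Plcg2 -0.06, and these 3 were named, after their values were seen, for their place next to TYROBP. The most abundant were the adaptor Grb2, with a log2 fold change of 0.15, the inhibitory receptor Sirpa with -0.43, and the proteases Adam10 and Adam17, which shed TREM2 from the cell surface, with -0.20 each. Groups did not overlap in 7 of the 20, 6 lower and 1 higher in ACKR4_KO, beside 7.63% of all genes lower and 6.53% higher. The lowest unadjusted p belonged to the exchange factor Vav3, with a log2 fold change of -0.54 (edgeR adjusted p = 0.661), and the adaptor Lat2, with -0.66 (edgeR adjusted p = 0.661), both named after their values were seen.

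Lysosomal genes were close to WT, with 25 of 25 tested, 0 past the test, 9 above 0 and 16 below and a median of -0.05. Psap, the precursor of the saposins, had a log2 fold change of 0.11, the membrane proteins Lamp1, Lamp2 and Scarb2 had -0.22, -0.14 and -0.05. Of 22 genes of lipid uptake and efflux 19 were tested and 0 passed, 10 above 0 and 9 below, with a median of 0.0074. Lpl, Fabp3, Cd36 and Fabp4 were the most abundant, and Fabp3, the fatty acid carrier of heart muscle, had 0.32. The general macrophage list had 22 of 22 tested and 0 past the test, 2 above 0 and 20 below, with a median of -0.25, and -0.07 without ACKR4_KO replicate 2. Its most abundant members, the lysozyme Lyz2 and the complement genes C1qa, C1qb and C1qc, had log2 fold changes of -0.34, -0.04, -0.13 and 0.06.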

How the data were processed

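RNA of infarcted mouse hearts was sequenced in 6 libraries, 3 ACKR4_KO and 3 WT, grouped by genotype label. Values as deposited by the authors are raw counts per gene. The submitters' processing notes name HTSeq 0.6.0, HISAT2, CASAVA 1.8.2 and the build mm10. They give no annotation release or strand setting, so reads of overlapping genes cannot be told apart by strand. Symbols, positions (GRCm38, the assembly of mm10) and lengths came from GENCODE M21.

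Genes were kept with filterByExpr of edgeR 4.0.16 (minimum count 10, total 15), scaled by TMM and tested with the robust quasi-likelihood test, two-sided, at an adjusted p of 0.05 over all genes, in R 4.3.3. Log2 CPM used a prior count of 2. Near-identical rows were sought with BLAST 2.17.0 (at least 90% over 100 bases). Results were recomputed with DESeq2 1.42.0, upper-quartile or RLE factors, voom of limma 3.58.1, other filters, gene subsets, the replicate number as a block and each library left out. The test was tested on simulated data. Named genes are Ackr4, the 8 genes, in each further list up to 4 genes past the threshold or otherwise the most abundant, the 5 nearest to Trem2 and to Gpnmb, and rows that overlap or copy a member. Other genes, marker genes of other tissues among them, were named after their values were seen. Members, lists and rules were chosen with earlier results of these data known, and motifs and the fibroblast comparison after the values were seen. The labels do not say that replicates of a group came from separate litters, so p-values measure the spread between these libraries. A count of 0 allows up to 3 reads, at most 0.273 CPM in ACKR4_KO and 0.318 CPM in WT when scaled by total counts without TMM factors.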

Additional observations from a re-analysis of the deposited data

How the results depend on the processing

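None of the 8 genes passed under any of the 17 alternatives run. Cd9 stayed between -0.52 and -0.43 on the log2 scale (adjusted p 0.171 to 0.999), and Fabp5 stayed below 0, between -0.36 and -0.04. The sign of the other 6 rested on single libraries, and with each left out in turn the log2 fold change ran from -0.91 to 0.15 for Trem2, from -0.19 to 0.11 for Tyrobp, from -0.33 to 0.51 for Gpnmb, from -0.76 to 0.10 for Lgals3, from -0.38 to 0.10 for Cd68 and from -0.41 to 0.07 for Apoe. By limma-voom Gpnmb was at -0.0059. The cause was not tested. The median log2 fold change of the 8 ran from -0.37 to 0.10. The difference between genotypes in the log2 ratio to macrophage genes had a median of 0.06 over the 8. That median lay between -0.02 and 0.18 with libraries left out and was -0.06 with Cd68 and Csf1r as the reference. It was 0.28 with fibroblast genes as the comparison, which was chosen after the values were seen. Genes past the threshold numbered 0 in the main test, 41 by DESeq2, 24 without a filter on low counts, 6 with the replicate number as a block, and 0 to 1 with libraries left out. Ackr4 passed by DESeq2 (-4.73), without the filter (-4.70) and without ACKR4_KO replicate 3, with -5.82 to -4.28 over libraries left out. Under the replicate block 0 of the 8 passed, Trem2 was at -0.48 and Cd9 at -0.47. Same-numbered libraries deviated together with correlations of 0.07, 0.05 and 0.13, and differently numbered ones with -0.12 to 0.06. The highest of the latter was ACKR4_KO replicate 2 with WT replicate 1. The labels tie no number to a pair of animals, so the numbers were not taken as pairs. Depth limits Trem2 most, with 77 reads in the lowest library.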

Other observations

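Genes that mark macrophages resident in the heart before injury, as distinct from the TREM2 programme, had 7 of 9 log2 fold changes above 0 and a median of 0.43, with 0 past edgeR's test. The score of the list was 0.47, 0.24 and -0.28 in ACKR4_KO, against -0.21, -0.06 and -0.16 in WT, so the groups overlapped and ACKR4_KO replicate 3 was the lowest of the 6 libraries. Gas6, Mrc1, F13a1 and Lyve1, the most abundant, had log2 fold changes of -0.37, -0.13, 0.51 and 0.39. Cd163, a scavenger receptor for hemoglobin, was at 47.7, 35.2 and 28.8 CPM in ACKR4_KO, against 18.6, 22.2 and 23.8 CPM in WT, with an edgeR adjusted p of 0.606. Folr2, a folate receptor of resident macrophages, was at 6.62, 8.91 and 6.02 CPM in ACKR4_KO, against 3.42, 5.45 and 4.27 CPM in WT (adjusted p = 0.661). Cd163, Cbr2 and Folr2, named after their values were seen, were higher in ACKR4_KO without overlap, beside 6.53% of all genes, and Gas6 of the same list was lower without overlap.

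In the families of galectins, tetraspanins and fatty acid binding proteins, 17 of 18 listed relatives of Lgals3, Cd9 and Fabp5 were tested and 0 passed, 9 above 0 and 8 below, with a median of 0.05. The most abundant were Fabp3, Fabp4, Cd81 and Lgals1, with log2 fold changes of 0.32, -0.09, -0.03 and 0.20. Among the tetraspanins the log2 fold change ran from -0.44 for Cd53, a tetraspanin of leukocytes, close to the -0.47 of Cd9, to 0.18 for Cd63. Between them lay Cd82 at -0.20, Cd37 and Tspan7 at -0.15, Tspan4 at -0.06, Cd81 at -0.03, Tspan9 at -0.01, Tspan3 at 0.06 and Cd151 at 0.15. Lgals4, a galectin of epithelia named after its values were seen, was at 14.0, 10.5 and 9.60 CPM in ACKR4_KO, against 7.70, 6.38 and 4.20 CPM in WT (edgeR adjusted p = 0.606).

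The genes nearest to Gpnmb were Primpol at 0.24, Gm4544 and Adamts14 at 0.26, N4bp2os at 0.27 and Abcc3 at 0.28, each between 0.922 and 10.1 CPM in the 6 libraries.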
